A study of Mus musculus with 2 samples.

Results

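Granulocyte nuclei of mouse mesenteric perivascular fat were defined by transcripts of Ccr3, Retnlg, Siglecf and Cd24a, and 52 of 19480 kept nuclei met the definition. There were 15 of 7869 nuclei in the library labelled Prdm16 cKO (floxed Prdm16 alleles with Cre, written AdopiQCre+ in the labels) and 37 of 11611 in the flox control library (floxed Prdm16 alleles without that Cre). Both libraries came from mice aged 11 weeks, and both carried the floxed alleles. The fat around the mesenteric vessels had been snap-frozen and homogenised, its nuclei purified on an iodixanol gradient, and nuclear RNA counted as unique molecular identifiers (UMIs) with 10x Genomics 3' chemistry. The Adipoq promoter, which the Cre label appears to name, is active in fat cells, so granulocytes are not the cells in which that Cre is expected to act. How many animals went into a library is not in the labels. With 1 library per genotype there was no replicate check and no test between genotypes. All intervals below are 95% intervals that cover counting error only.

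A kept nucleus had at least 500 UMIs and under 5% mitochondrial UMIs. A member had at least 2 UMIs of the 4 genes, over at least 2 of them and with Ccr3, Retnlg or Siglecf among them, at a summed rate of at least 5 per 10000 UMIs. It also had at most 1 UMI over 7 genes of other cells (Pax5, Bank1, Themis, Flt1, F13a1, Mrc1 and Sis). The levels of these 11 genes therefore describe the choice and are not findings.

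Eosinophils and neutrophils are short-lived white blood cells that form in bone marrow and enter tissues from blood. Eosinophils follow the eotaxin chemokines through the receptor Ccr3, depend on interleukin-5 for their production and survival, carry Siglecf on their surface in mice, and are known in fat as a source of interleukin-4. Neutrophils follow other chemoattractants, such as those that act on Cxcr2, and store antimicrobial proteins in granules. Retnlg encodes a secreted resistin-like protein made by mouse neutrophils among other cells, and Cd24a encodes a surface protein shared by granulocytes, young B cells and epithelium. Prdm16 is a transcriptional regulator known for its part in brown and beige fat cell identity.

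The members were shallow nuclei with an unusual make-up of RNA. They held 36735 UMIs in all in the cKO-labelled library and 104443 in the flox control library, with medians of 2280 UMIs (1758 to 3816) and 2618 UMIs (1193 to 5384) per nucleus. The remaining nuclei had medians of 6767 UMIs in the cKO-labelled library and 7413 in the flox control library. A level of 3 UMIs, taken here as the smallest detectable, was 81.7 CPM (UMIs per 1000000 member UMIs) in the cKO-labelled library and 28.7 CPM in the flox control library. Mitochondrial UMIs had a median of 2.23% in cKO-labelled members and 1.68% in flox control members, against 0.262% and 0.295% in the remaining nuclei of each library. Gm42418, a locus that overlaps ribosomal RNA sequence, took 10.9% of member UMIs in the cKO-labelled library and 15.5% in the flox control library, against 1.15% and 1.98% in the remaining nuclei. Of the barcodes, 28 occurred in both libraries, and 0 of these were members. No member was among the nuclei with the highest Scrublet doublet scores, which would have taken 495 cKO-labelled and 1079 flox control nuclei. Because members were shallow and were limited on genes of other cells, these scores cannot show that no member was a doublet.

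The deleted gene could not check the genotype label. Prdm16 (chromosome 4, 154316125 to 154636873, mm10) had 0 UMIs in the 15 cKO-labelled members and 3 UMIs in the 37 flox control members, both at or under the detectable level. In the remaining nuclei its level was 32.1 CPM in the cKO-labelled library and 28.8 CPM in the flox control library, so it was not lower in the library labelled cKO. The labels do not name the floxed exon, and 3' counts need not cover it.

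Of the 37 flox control members, 3 deep nuclei stood apart from the others. The next to deepest held 58 of the 77 Fbn1 UMIs and 24 of the 60 Gpc6 UMIs of the flox control members, with 4919 UMIs in total and 0 UMIs of F5 and Gapt. The deepest, at 5384 UMIs, held 10 UMIs of Lyz1, 11 of Mptx2, 6 of Defa24 and 6 of Cdh1, genes of intestinal epithelium, and 23 of the 45 Gmds UMIs. The nucleus at a depth of 4408 UMIs held 20 of the 91 Rbms3 UMIs. Without them the flox control library had 34 members, and the results that rest on them are given with and without them.

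Ccr3, Retnlg and Siglecf, which chose the nuclei together with Cd24a, were read as 1 UMI in most nuclei that had them. Ccr3 (chromosome 9, 124021972 to 124031689) had 19 UMIs in 12 of 15 cKO-labelled nuclei, or 517 CPM, and 44 UMIs in 30 of 37 flox control nuclei, or 421 CPM. Retnlg (chromosome 16, 48872621 to 48874496) had 5 UMIs in 5 cKO-labelled nuclei, or 136 CPM, and 24 UMIs in 16 flox control nuclei, or 230 CPM. Siglecf (chromosome 7, 43351341 to 43359531) had 2 UMIs in the cKO-labelled nuclei and 6 in the flox control nuclei, each in a nucleus of its own. Cd24a (chromosome 10, 43578284 to 43584265) had 41 UMIs in all 15 cKO-labelled nuclei, or 1116 CPM, and 56 UMIs in 33 flox control nuclei, or 536 CPM. Ccr3 was thus read in 42 of the 52 members, Retnlg in 21, Siglecf in 8 and Cd24a in 48. By combination, 10 cKO-labelled and 21 flox control nuclei had Ccr3 or Siglecf without Retnlg, 3 and 4 had Retnlg without these, and 2 and 12 had both. Members just inside the limits were common. The sum of the 4 genes was exactly 2 UMIs in 4 cKO-labelled and 8 flox control nuclei, the rate was between 5 and 10 per 10000 in 5 and 13, and the exclusion genes stood at their limit of 1 UMI in 13 and 21.

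**Figure D1:**
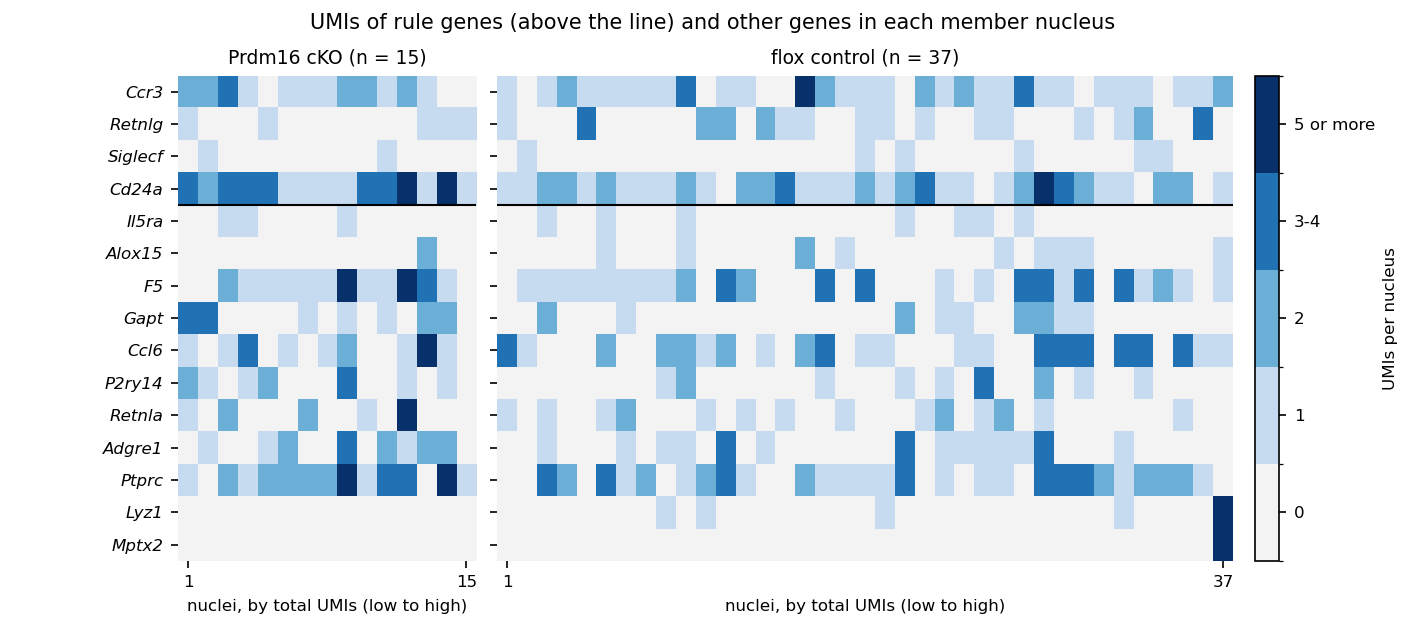
UMIs of the 4 rule genes (above the line) and of 11 other genes in each of the 15 cKO-labelled and 37 flox control members, with nuclei as columns ordered by total UMIs and darker blue for more UMIs. F5, Gapt, Ccl6 and Ptprc, which the rule did not use, were read across many members of both libraries, while Mptx2 was read in the deepest flox control nucleus alone.

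Genes that the rule did not use included several of eosinophils and few of neutrophils, while most genes of eosinophil granules were at 0. Of the 10 eosinophil genes examined, 5 were read. Il5ra, the interleukin-5 receptor subunit, had 3 UMIs in cKO-labelled members (81.7 CPM, 16.8 to 239) and 7 in flox control members (67.0 CPM, 27.0 to 138), against 3.15 and 2.91 CPM in the remaining nuclei. Alox15, a lipoxygenase of eosinophils and some macrophages, had 2 UMIs in cKO-labelled members (54.4 CPM) and 10 in flox control members (95.8 CPM), against 2.495 and 2.244 CPM in the remaining nuclei. Cebpe, a transcription factor of late granulocyte maturation, had 2 and 3 UMIs in the cKO-labelled and flox control members, and Gata1 and Ear2 had 2 UMIs and 1 UMI in flox control members alone. Epx (eosinophil peroxidase), Prg2 (major basic protein), Prg3, Ear1 and Ear6 had 0 UMIs in all 52 members. The granule genes were thus not detectable at this depth, which does not show that they were absent.

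The neutrophil genes were read at 9 UMIs in all. Of 18 examined, 16 had 0 UMIs in every member, among them S100a8, S100a9, Csf3r (the receptor of the neutrophil growth factor), Cxcr2, Ly6g, Lcn2 and Camp. The exceptions were Mmp9, with 2 UMIs in cKO-labelled and 1 in flox control members, and Padi4, with 3 UMIs in each. The list summed to 136 CPM in cKO-labelled members and 38.3 CPM in flox control members, against 9.88 and 9.63 CPM in the remaining nuclei, which is 13.8 and 3.98 times as high, and 34.8 and 45.1 CPM in nuclei gated as resident macrophages. Padi4, an enzyme that citrullinates histones in neutrophils, stood at 81.7 and 28.7 CPM, 22.2 and 8.59 times the remaining nuclei. The members with Retnlg but neither Ccr3 nor Siglecf, which could have been neutrophils by the rule, had 0 UMIs of S100a8, S100a9, Csf3r and Cxcr2 and 1 UMI of Padi4 over 7 nuclei and 20027 UMIs. Genes of basophils and mast cells were at 0 for 11 of 12, and the exception, Kit, had 1 UMI in cKO-labelled and 4 UMIs in flox control members. With most genes of eosinophil granules and of neutrophils at 0, the members are called granulocyte nuclei by their rule and were given no finer name.

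Shares of nuclei with a UMI of either list had wide intervals. Of the cKO-labelled members 26.7% (4 of 15, 7.79 to 55.1) and of the flox control members 45.9% (17 of 37, 29.5 to 63.1) had a UMI of the 10 eosinophil genes. The share was 5.58% and 4.29% in macrophage-gated nuclei of the cKO-labelled and flox control libraries and 3.28% and 0.481% in T cell-gated nuclei, at median depths between 4548 and 5055 UMIs. It was 24.2% and 19.6% in B cell-gated nuclei, where Il5ra stood at 57.0 and 60.2 CPM, and the share in cKO-labelled members was close to that. After every nucleus was thinned to 500 UMIs, with 0 left out, the share was 13.3% (2 of 15, 1.658 to 40.46) in cKO-labelled members. It was 5.41% (2 of 37, 0.6615 to 18.19) in flox control members. These intervals held the shares in B cell-gated nuclei, 2.58% and 3.41%. For the neutrophil genes the share was 33.3% (5 of 15, 11.8 to 61.6) in cKO-labelled and 10.8% (4 of 37, 3.03 to 25.4) in flox control members, against 14.1% and 15.4% in macrophage-gated nuclei. After thinning it was 6.67% (1 of 15, 0.1686 to 31.95) in cKO-labelled and 0% (0 of 37, 0 to 9.489) in flox control members. These intervals held the shares in macrophage-gated nuclei, 1.45% and 2.11%.

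Among genes with at least 10 member UMIs in each library, F5 and Gapt led the members over all other nuclei. Cebpe had a ratio like that of F5, 125 times and 72.3 times the remaining nuclei, but on 2 and 3 UMIs. F5, coagulation factor V (chromosome 1, 164151838 to 164220277), stood at 653 CPM (419 to 972) in cKO-labelled members and 402 CPM (290 to 544) in flox control members, against 6.12 and 5.61 CPM in the remaining nuclei. That is 107 times and 71.6 times the remaining nuclei of the same library. A UMI of F5 was read in 80.0% of cKO-labelled and 64.9% of flox control members, against at most 4.10% of any gated set of either library. Gapt, a membrane adaptor protein of blood cells (chromosome 13, 110352616 to 110357199), stood at 354 CPM (188 to 605) in cKO-labelled members and 124 CPM (66.3 to 213) in flox control members, against 1.326 and 1.505 CPM in the remaining nuclei. A UMI of Gapt was read in 46.7% and 24.3% of members, against at most 1.30% of any gated set. These ratios describe the members and were not tested, because the nuclei were chosen on expression in the same libraries.

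Chemokine, cytoskeletal and leukocyte genes followed. Ccl6, a mouse chemokine of myeloid cells (chromosome 11, 83587882 to 83593087), had 463 CPM in cKO-labelled and 460 CPM in flox control members, 29.0 and 23.3 times the remaining nuclei. Its share of nuclei with a UMI was 60.0% in cKO-labelled and 59.5% in flox control members, and 29.6% and 32.7% in macrophage-gated nuclei, so macrophage nuclei carried it as well. Laptm5, a lysosomal protein of blood cells, had 599 and 306 CPM, 36.0 and 19.3 times the remaining nuclei. Srgn, the core protein of granule proteoglycan, had 299 and 163 CPM, and Sla, an adaptor that dampens receptor signalling in leukocytes, had 299 and 211 CPM. Tmsb4x, which binds actin monomers, had 1198 and 1082 CPM, 28.8 and 24.9 times the remaining nuclei, and Actb, cytoplasmic actin, had 1388 and 1532 CPM, 16.9 and 20.5 times. Gpx1, a peroxide-reducing enzyme, had 463 and 440 CPM, 24.9 and 26.0 times the remaining nuclei.

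Transcripts of ribosomal proteins were high throughout. Of 63 such genes with at least 10 member UMIs, 58 were at least 2-fold above the remaining nuclei in each library, against 11.6% of all 3089 genes compared in this way. Their summed level was 14428 CPM in cKO-labelled and 11671 CPM in flox control members, against 2621 and 2484 CPM in the remaining nuclei and 3760 and 3860 CPM in T cell-gated nuclei. Together with the mitochondrial share and Gm42418 given above, these transcripts moved with the choice of members, and the part of cytoplasmic RNA or of low depth in the leading genes was not tested.

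**Figure D2:**
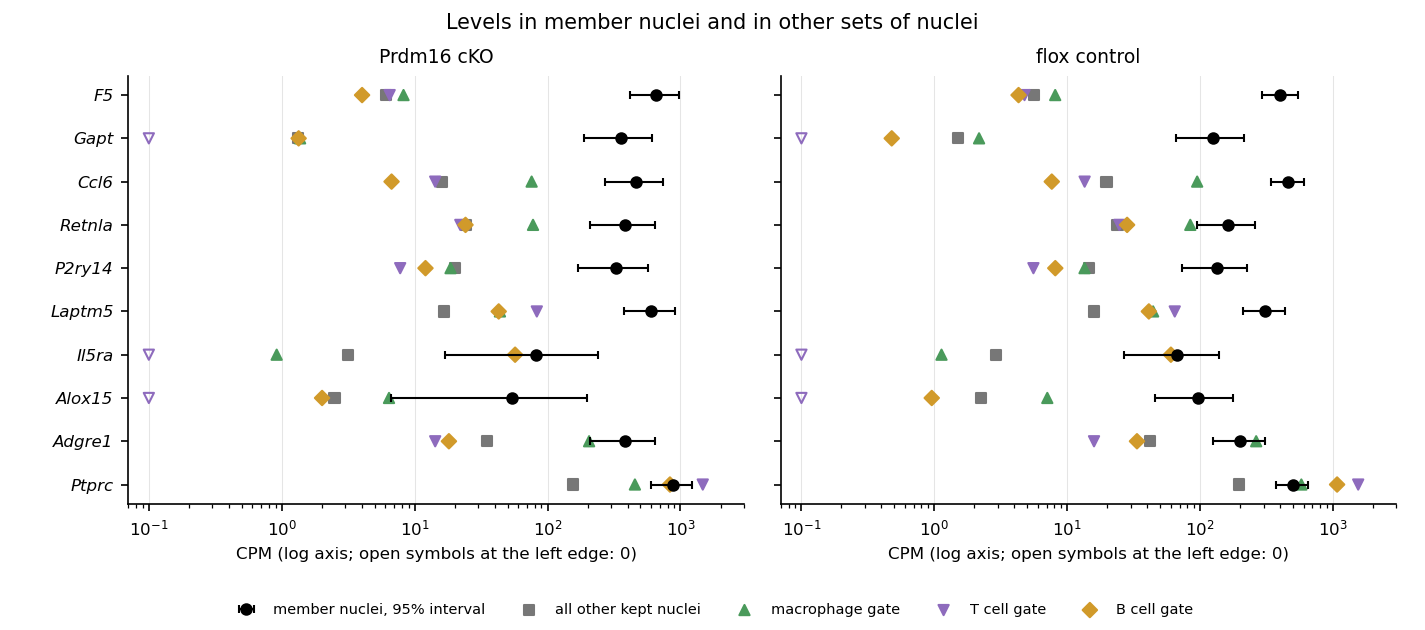
Levels in CPM on a log axis of 10 genes that the rule did not use, in members (black, with 95% counting intervals), macrophage, T cell and B cell gates and all other kept nuclei, for the Prdm16 cKO and flox control libraries. F5, Gapt and Ccl6 lay above every other set in both libraries, whereas the Il5ra interval of the members spanned the level of the B cell gate and Ptprc was highest in the T cell gate.

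Genes shared by leukocytes were higher in the members than in the remaining nuclei. The summed genes of macrophages, T cells and B cells were lower than in nuclei gated for those cells. These sums share genes with the gates (Cd163 and Msr1, Lef1, Cd3e and Cd3g, and Cd79b and Ms4a1). The difference was therefore fixed in part by the choice of the gated nuclei. Ptprc (CD45) had 871 CPM in cKO-labelled and 498 CPM in flox control members, against 156 and 195 CPM in the remaining nuclei. Of the 9 pan-leukocyte genes, 7 had enough UMIs and 5 of these were at least 2-fold above the remaining nuclei in each library. Over all 3089 genes compared the share was 11.6%. The sum of the 9 genes, 3784 and 2844 CPM, lay below that of T cell-gated nuclei (8368 and 9346 CPM). Macrophage genes summed to 544 CPM in cKO-labelled and 393 CPM in flox control members, against 1089 and 1307 CPM in macrophage-gated nuclei. Most of that was Adgre1 (F4/80), a receptor that mouse eosinophils also carry, with 381 and 201 CPM, and Cx3cr1, Msr1 and Ly6c2 were at 0. The complement genes C1qc, with 54.4 and 67.0 CPM over 2 and 7 UMIs, and C1qa, with 27.2 and 28.7 CPM over 1 and 3 UMIs, were read beside it. In macrophage-gated nuclei C1qc stood at 42.3 and 43.1 CPM, within the intervals of the members (6.593 to 196.7 and 26.95 to 138.1), and C1qa at 45.2 and 44.0 CPM. C1qb had 0 UMIs in cKO-labelled and 2 UMIs (19.15 CPM) in flox control members, against 50.38 and 64.35 CPM in macrophage-gated nuclei. Genes of T and innate lymphoid cells summed to 54.4 CPM in cKO-labelled and 105 CPM in flox control members, against 2166 and 2257 CPM in T cell-gated nuclei. B cell genes were mostly represented by Ebf1, which fat cells and their precursors also express, with 66 UMIs in cKO-labelled and 197 in flox control members, while Cd79a and Cd79b were at 0. The 8 dendritic cell genes summed to 245 CPM in cKO-labelled and 182 CPM in flox control members, against 163 and 173 CPM in the remaining nuclei. Their sums were 443.3 and 513.6 CPM in macrophage-gated and 517.4 and 710.8 CPM in B cell-gated nuclei. Cd74, the invariant chain of antigen-presenting cells, was the 1 gene among them with enough UMIs. It stood at 136 and 105 CPM, against 41.0 and 41.4 CPM in the remaining nuclei. In macrophage-gated nuclei it had 134.8 and 146.8 CPM, and in B cell-gated nuclei 204.4 and 274.4 CPM. Flt3, Clec9a and Xcr1 were at 0 in members.

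Transcripts of adipocyte genes were read in every member. The 11 adipocyte genes gave 8 to 40 UMIs per cKO-labelled nucleus (median 16) and 6 to 39 per flox control nucleus (median 13), and summed to 7241 CPM in cKO-labelled and 4835 CPM in flox control members, against 10009 and 8152 CPM in the remaining nuclei. None of the 10 with enough UMIs was 2-fold above the remaining nuclei. The 7 fibroblast genes summed to 680 CPM (440 to 1005) in cKO-labelled and 1092 CPM (900 to 1311) in flox control members, against 552 and 511 CPM in the remaining nuclei, and a UMI of them was read in 10 of 15 and 32 of 37 members. Of all genes compared, 11.6% were at least 2-fold above the remaining nuclei in each library. Among the 5 fibroblast genes with enough UMIs, 2 were. These were Dcn, a collagen-binding proteoglycan, at 436 and 527 CPM against 214 and 204 CPM, and Pi16, a marker of fibroblast progenitors, at 54.4 and 115 CPM against 15.9 and 12.1 CPM. In cKO-labelled members Pi16 had 2 UMIs, and its interval (6.593 to 196.7 CPM) held the level in the remaining nuclei. Without the 3 deep nuclei the fibroblast sum of flox control members was 1014 CPM. Pancreatic acinar genes gave 51 UMIs over 14 of 15 cKO-labelled nuclei and 17 UMIs over 13 of 37 flox control nuclei, a log2 ratio of 3.09 (2.28 to 3.98) for cKO over flox control, and the log2 ratio in the remaining nuclei was 2.18. The part of free RNA from fat, fibroblasts and pancreas in any level of the members was not tested.

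Receptors for cytokines, chemoattractants and immune ligands were read at low counts. Il1rl1, the interleukin-33 receptor, had 136 CPM in cKO-labelled and 124 CPM in flox control members, against 15.16 and 19.97 CPM in the remaining nuclei. Csf2rb, the chain shared by the receptors of interleukin-5, interleukin-3 and GM-CSF, had 3 UMIs in cKO-labelled and 6 in flox control members. Of the 4 cytokine receptors with at least 10 UMIs, only Il1rl1 was 2-fold above the remaining nuclei, as were 11.6% of all genes compared. Among 15 chemoattractant receptors, P2ry14, a receptor for UDP-sugars, led with 327 CPM in cKO-labelled and 134 CPM in flox control members, 16.3 and 9.15 times the remaining nuclei. Ccr1 had 1 UMI in cKO-labelled and 7 UMIs in flox control members, and Cxcr4, Ptgdr2, Hrh4, Fpr1, Fpr2 and C5ar1 were at 0. Among immune receptors, Cd300lf, an inhibitory receptor of myeloid cells, had 136 and 47.9 CPM in the cKO-labelled and flox control members, against 1.63 and 1.45 CPM in the remaining nuclei. It had 26.8 and 17.7 CPM in B cell-gated nuclei, the latter within the flox control interval (15.54 to 111.7), and 0.916 and 1.415 CPM in macrophage-gated nuclei. Sirpa, the receptor of the CD47 signal, had 327 and 95.8 CPM, against 106.6 and 121.8 CPM in macrophage-gated nuclei. The immune receptor genes summed to 980 and 497.9 CPM in members, against 570.8 and 652.1 CPM in macrophage-gated nuclei. For the chemoattractant receptors the sums were 680.5 and 383 CPM, against 352.2 and 429 CPM. For the cytokine receptors they were 762.2 and 651.1 CPM, against 1207 and 1285 CPM.

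Genes of adhesion, lipid mediators and the oxidative burst were read beside them. Of 9 adhesion genes with enough UMIs, 6 were at least 2-fold above the remaining nuclei in each library, as were 11.6% of all genes compared. They included Cd44, a hyaluronan receptor (272 CPM in cKO-labelled and 316 CPM in flox control members), Itga4, an integrin used by eosinophils to leave blood (163 and 287 CPM), and Itgam (CD11b; 81.7 and 182 CPM). Of 6 genes of eicosanoid synthesis, 4 were above, with Alox5, the enzyme that starts leukotriene synthesis, at 81.7 and 134 CPM and Pla2g4a, the phospholipase that frees its substrate, at 218 and 211 CPM. Of 5 genes of the oxidative burst, 4 were above. Cybb, the catalytic subunit of the NADPH oxidase, had 245 and 115 CPM and its partner Cyba 136 and 134 CPM. These lists were also high in other leukocyte nuclei. The 8 oxidative burst genes summed to 1198 CPM in cKO-labelled and 718 CPM in flox control members, against 1293 and 1814 CPM in B cell-gated nuclei. The adhesion genes summed to 1715 and 1656 CPM, against 1914 and 2109 CPM in T cell-gated nuclei, and the eicosanoid genes to 898 and 747 CPM, against 806 and 943 CPM in macrophage-gated nuclei.

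Most secreted mediators examined were not detected. Of 17 examined, 9 were at 0 in all members, among them Il13, Il6, Tnf and Osm, and Il4 had 0 UMIs in cKO-labelled and 3 in flox control members. Retnla, a resistin-like protein of alternatively activated macrophages and other cells, had 381 CPM in cKO-labelled and 163 CPM in flox control members, against 24.3 and 23.9 CPM in the remaining nuclei. Retnla and Retnlg are close paralogs on chromosome 16, and reads shared by the pair would make both counts uncertain. Vegfa had 354 and 144 CPM, against 302 and 204 CPM in the remaining nuclei. Among granulocyte transcription factors, Zeb2 was read in all 52 members (2423 CPM in cKO-labelled and 2403 CPM in flox control members), below its level in the remaining nuclei (3022 and 3420 CPM). Runx1 had 354 and 297 CPM, Cebpb 81.7 and 105 CPM and Spi1 (PU.1) 54.4 and 47.9 CPM, and Gfi1, Cebpd and Runx3 were at 0. Of the 4 survival genes with enough UMIs, 2 were at least 2-fold above the remaining nuclei in each library, against 11.6% of all genes compared. Mcl1 (109 and 182 CPM) and Pim1 (191 and 124 CPM) were above, whereas Bcl2 was not (245 and 239 CPM, against 303 and 337 CPM). Of the cell division genes 5 of 8 were at 0, as were 5 of 9 immediate early genes.

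The nuclei that the exclusion genes kept out had the leading genes at levels close to those of the members when both libraries were summed. A further 55 cKO-labelled and 82 flox control nuclei, 137 in all, met every other condition but had 2 or more UMIs of the exclusion genes, mainly Bank1 (131 UMIs in cKO-labelled and 161 in flox control nuclei), F13a1 (91 and 173) and Mrc1 (47 and 51). In the remaining nuclei the 7 exclusion genes stood at 777 CPM in the cKO-labelled and 850 CPM in the flox control library, which comes to 1.77 and 2.23 UMIs at the median depth of the members, above the limit of 1 UMI. Over both libraries, F5 had 468 CPM (362 to 595) in members and 416 CPM (364 to 474) in the excluded nuclei. Gapt had 184 CPM in members and 158 CPM in the excluded nuclei, Ccl6 460 and 544 CPM, Il5ra 70.8 and 78.8 CPM and Alox15 85.0 and 106 CPM. In the cKO-labelled library alone some levels were further apart. Gapt had 354 CPM (188 to 605) in members and 181 CPM (130 to 245) in the excluded nuclei, P2ry14 327 and 167 CPM and Retnla 381 and 167 CPM, while F5 had 653 and 551 CPM. In the flox control library these 4 genes had 124, 134, 163 and 402 CPM in members, against 141, 100.4, 269.8 and 320 CPM in the excluded nuclei. S100a8, S100a9 and Cxcr2 were at 0 in both sets, and Csf3r had 0 UMIs in members and 2 in the excluded nuclei. Of the nuclei just outside the other limits, 2 sets had less F5. It stood at 60.7 CPM in 48 nuclei with the required genes but a rate under 5 per 10000, which were deep nuclei with a median of 15924 UMIs and were not limited on the exclusion genes. It had 11.1 CPM in 85 nuclei with 1 UMI of a single rule gene and at most 1 of the exclusion genes, with a median of 7733 UMIs. In the third set, 13 nuclei with 1 rule gene at 2 or more UMIs, F5 had 415 CPM (271 to 608), close to its level in the excluded nuclei.

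**Figure D3:**
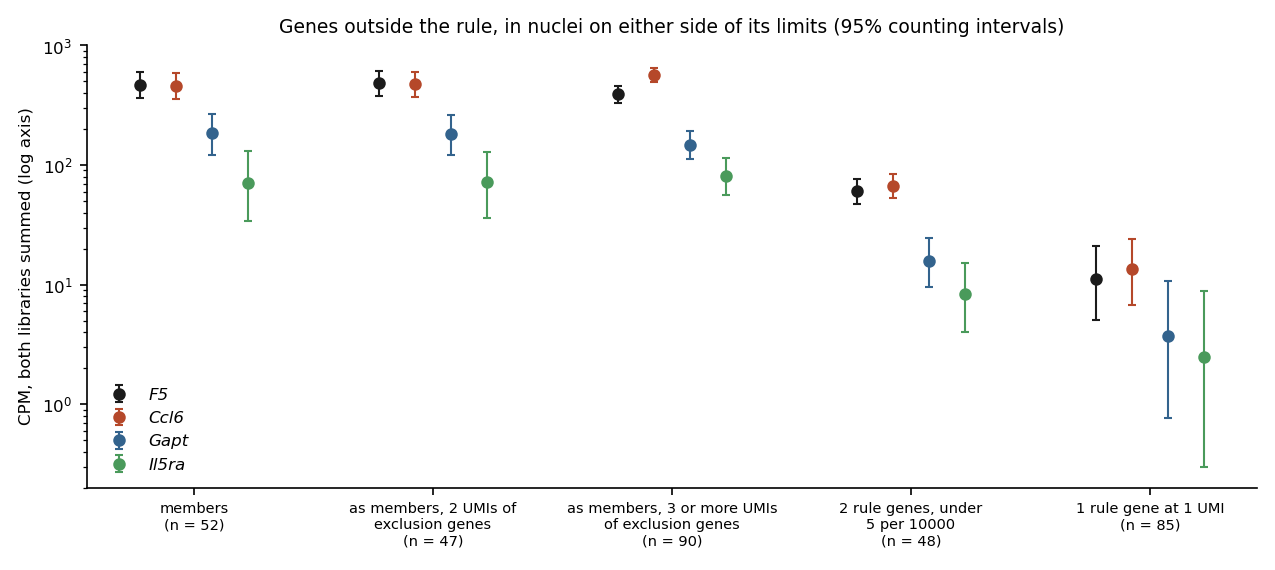
Levels of F5, Ccl6, Gapt and Il5ra in CPM (log axis, both libraries summed, 95% counting intervals) in members, in nuclei that the exclusion genes kept out and in nuclei below the limits on the rule genes. Nuclei with 2 or more UMIs of the exclusion genes lay close to the members for all 4 genes, and those with 1 rule gene at 1 UMI lay lowest.

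Among the members, F5 and Ccl6 were read with each combination of rule genes. F5 had 549 CPM (401 to 735) in the 31 nuclei with Ccr3 or Siglecf and no Retnlg, 408 CPM (233 to 662) in the 14 with both and 250 CPM (81.1 to 583) in the 7 with Retnlg alone. Ccl6 had 415, 637 and 300 CPM in the same 3 sets, and the intervals overlapped. Il5ra had 9 UMIs in the Ccr3 or Siglecf set, 1 UMI where both were read and 0 UMIs with Retnlg alone, where 3 UMIs would have been 149.8 CPM.

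Granulocyte nuclei made up 0.191% (0.107 to 0.314) of kept nuclei in the cKO-labelled library and 0.319% (0.225 to 0.439) in the flox control library. The log2 ratio of the shares, cKO over flox control, was -0.74 (-1.71 to 0.16), an interval that holds 0. The size of the difference depended on the exclusion genes. With no limit on them the counts were 70 cKO-labelled and 119 flox control nuclei and the log2 ratio was -0.20 (-0.65 to 0.23). With none of their UMIs allowed, 2 cKO-labelled and 16 flox control nuclei were left and the log2 ratio was -2.44 (-5.60 to -0.35). Without the 3 deep flox control nuclei it was -0.62 (-1.60 to 0.30). A share of nuclei also moves with the recovery of other nuclei, and with 1 library per genotype, genotype and library cannot be told apart.

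**Figure D4:**
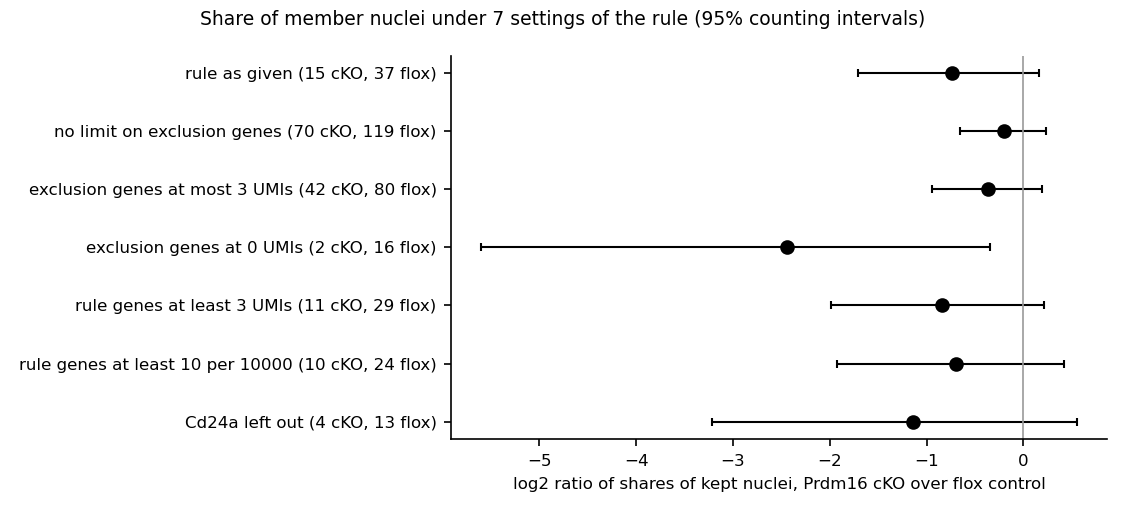
Log2 ratio of the share of member nuclei, Prdm16 cKO over flox control, with 95% counting intervals under 7 settings of the rule and the nuclei counted under each. The ratio was below 0 under all 7, and its interval left out 0 only where no UMI of the exclusion genes was allowed (2 against 16 nuclei).

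The genes higher in cKO-labelled members included several of lipid synthesis, which were higher in the other nuclei of that library as well. Of 1434 genes with at least 20 member UMIs, 99 (6.9%) were at least 2-fold higher and 81 (5.65%) at least 2-fold lower in cKO-labelled members, and the median log2 ratio, cKO over flox control, was 0.07. With TMM factors, which lowered all log2 ratios by 0.34, 27 genes were higher and 180 lower, and with DESeq2 size factors 26 were higher and 190 lower, so the balance of directions depended on the scaling. Among 327 genes with at least 50 UMIs, 8 were 2-fold higher in cKO-labelled members with an interval above 0. Acly, which makes acetyl-CoA for fatty acid synthesis, had 789 CPM in cKO-labelled and 316 CPM in flox control members, a log2 ratio of 1.32 (0.55 to 2.09), against 1.23 in the remaining nuclei. Me1, an enzyme that supplies NADPH, had 1851 and 747 CPM, a log2 ratio of 1.31 (0.82 to 1.80), against 0.88 in the remaining nuclei. Acacb and Tkt, an acetyl-CoA carboxylase and a pentose phosphate enzyme, had log2 ratios of 1.29 and 1.04, against 0.69 and 1.05, and Lrp1b, a receptor of the lipoprotein receptor family, 1.00, against 0.85. Mtss1 (an actin and membrane binding protein), Adk (adenosine kinase) and Dcaf6 (a ubiquitin ligase adaptor) had log2 ratios of 1.28, 1.19 and 1.16 in members, against 0.28, 0.20 and 0.35 in the remaining nuclei. With no limit on the exclusion genes, and with 0.5 added to each count here and in all alternatives that follow, these 3 stood at 0.20, 0.61 and 0.77, and with TMM factors all 8 were below 2-fold, between 0.67 and 0.98. The adipocyte genes had a median log2 ratio of 0.71 over the 10 compared, and their part in these ratios was not tested.

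The genes lower in cKO-labelled members rested in part on single nuclei. Fbn1, the microfibril protein fibrillin-1, had 1 UMI in cKO-labelled and 77 UMIs in flox control members, a log2 ratio of -4.76 (-10.08 to -2.24), against -0.34 in the remaining nuclei. With 0.5 added to each count the ratio was -4.18, and without the 3 deep flox control nuclei it was -1.99. Gpc6, a cell-surface proteoglycan, had 7 and 60 UMIs, a log2 ratio of -1.59, which was -0.87 without these nuclei and 0.72 with no limit on the exclusion genes. Gmds, an enzyme of fucose synthesis, and Rbms3, an RNA-binding protein, had log2 ratios of -1.18 and -1.09, and of -0.30 and -0.68 without the 3 nuclei. Lrba, a vesicle-trafficking protein of immune cells, had 6 and 52 UMIs, with those of flox control spread over 27 nuclei, a log2 ratio of -1.61 (-3.12 to -0.39). It was -1.39 without the 3 nuclei and 0.24 with no limit on the exclusion genes. Pard3 (a polarity protein), Fer (a tyrosine kinase) and Ptprg (a receptor tyrosine phosphatase) had log2 ratios of -1.36, -1.24 and -1.18, and of -0.99, -1.18 and -0.91 without the 3 nuclei, so that Pard3 and Ptprg were no longer past 2-fold. They compare with values between -0.34 and -0.12 in the remaining nuclei. With no limit on the exclusion genes, 1 of these 3, Fer, had a log2 ratio above 0, at 0.32.

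**Figure D5:**
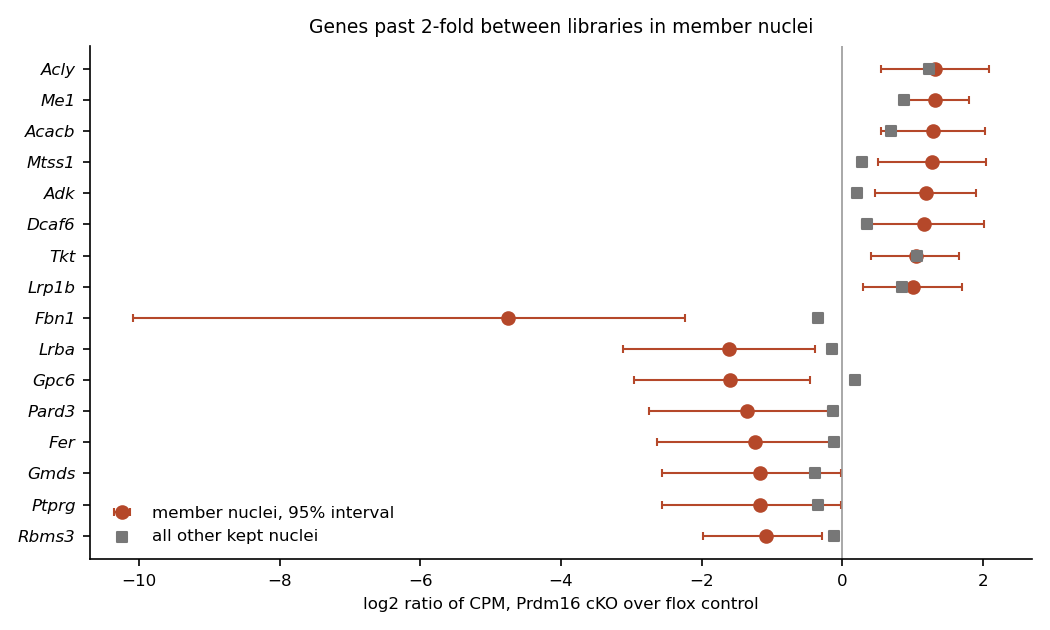
Log2 ratio of CPM, Prdm16 cKO over flox control, of the 16 genes with at least 50 member UMIs that were past 2-fold, in members (red, with 95% counting intervals) and in all other kept nuclei (grey squares). Acly, Tkt and Lrp1b had almost the same ratio in both sets, while Fbn1, Lrba and Gpc6 had intervals that lay below the ratio in the other nuclei.

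Of the genes that characterised the members, some differed little between libraries and some were higher in cKO-labelled members with wide intervals. Ccl6 had a log2 ratio of 0.01 (-0.88 to 0.83), Tmsb4x 0.15 (-0.39 to 0.66), Actb -0.14 (-0.63 to 0.32) and F5 0.70 (-0.09 to 1.46). Laptm5 had 0.97 (0.11 to 1.79), against 0.07 in the remaining nuclei, Ptprc 0.81 (0.12 to 1.47), against -0.33, and Ftl1, the ferritin light chain, 1.14 (0.13 to 2.12), against 0.36. With no limit on the exclusion genes Laptm5 stood at 0.28 and Ptprc at 0.10. The pan-leukocyte sum had a log2 ratio of 0.41 (0.11 to 0.71), against -0.33 in the remaining nuclei, and of 0.28 (-0.02 to 0.58) without the 3 deep nuclei. Gapt had 1.51 (0.28 to 2.73), but 13 UMIs in each library and 0.58 with no limit on the exclusion genes. Sirpa had 12 UMIs in cKO-labelled and 10 in flox control members, a log2 ratio of 1.77 (0.43 to 3.14), and 0.89 with no limit on the exclusion genes. Retnla had a log2 ratio of 1.23 (0.10 to 2.33), against 0.02 in the remaining nuclei, but 8 of its 14 cKO-labelled UMIs were in 1 nucleus and the ratio was -0.30 with no limit on the exclusion genes. Alox5ap, the protein that presents substrate to Alox5, had 8 UMIs in 4 cKO-labelled nuclei and 4 UMIs in 3 flox control nuclei, a log2 ratio of 2.51 (0.61 to 4.69). The lists hold 1 to 10 genes with enough UMIs each, and over all 1434 genes compared 6.9% were higher and 5.65% lower. By list, 0 of 7 pan-leukocyte genes with at least 20 UMIs were past 2-fold, as were 0 of 5 adhesion genes, 0 of 3 transcription factors, 0 of 2 eicosanoid genes and 0 of 4 survival genes. Higher in cKO-labelled members were 1 of 2 oxidative burst genes (Cybb), 2 of 3 secreted mediators (Retnla and Vegfa), 3 of 10 adipocyte genes, and the only gene with enough UMIs among chemoattractant receptors (P2ry14), immune receptors (Sirpa) and acinar genes (Cpb1). No list had a gene with at least 20 UMIs that was 2-fold lower. The fibroblast sum was lower in cKO-labelled members, with 25 UMIs against 114 and a log2 ratio of -0.68 (-1.37 to -0.05), against 0.11 in the remaining nuclei, and -0.57 (-1.28 to 0.08) without the 3 deep nuclei. In that list Col1a2, a collagen chain, had 0 UMIs in cKO-labelled members, with an interval up to 100.4 CPM. It had 18 UMIs (172 CPM, 102.1 to 272.4) in flox control members.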

How the data were processed

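Both deposited matrices hold raw, whole-number UMI counts for each gene in each barcode. Per the file headers, the authors used Cell Ranger 6.1.2, and the submitters' processing notes name the build mm10. Not given in the sources used here are the annotation release, the counting of introns, the use of strand and the choice of barcodes, so counts of overlapping or antisense genes and of close paralogs (Retnlg and Retnla, Csf2rb and Csf2rb2, Lilrb4a and Lilr4b) are uncertain. The sample labels (mesenteric, nuclear RNA) were used where the series text differs (thoracic and abdominal, total RNA). The libraries held 70895490 UMIs over 8086 barcodes (Prdm16 cKO) and 108987031 over 12060 (flox control).

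The counts of members were summed per library and given as CPM with exact Poisson intervals. Shares have Clopper-Pearson intervals. Log2 ratios, cKO over flox control, have exact conditional binomial intervals. Genes with at least 20 UMIs over both libraries counted as different past 2-fold with 0.5 added to each count, and alternatives use the same addition. Between members and remaining nuclei, at least 10 member UMIs over both libraries and 2-fold in each library were needed. A gene could thus pass with few UMIs in the cKO-labelled members. Macrophages were gated on F13a1, Mrc1, Cd163 and Msr1, and T cells on Themis, Lef1, Cd3e and Cd3g. B cells were gated on Pax5, Bank1, Cd79b and Ms4a1. Each gate needed at least 3 UMIs over at least 2 of its 4 genes, at a summed rate of at least 5 per 10000 UMIs. Gated nuclei had at most 1 UMI of the 4 rule genes and met no other gate. Nuclei that the exclusion genes kept out had at least 2 UMIs of the rule genes, so they were in no gate. UMIs with no true source in a nucleus were not removed. Positions are from GENCODE release M21 and were found for 32235 of 32285 genes, and 299 of 300 listed genes had a row. The text names the rule genes, the most read, most different and undetected genes of each list, leading genes among the 25 highest ratios over the remaining nuclei (624 had 10 UMIs in each library), and up to 10 genes per direction with at least 50 UMIs. The members and lists were chosen with earlier results of these data known. Sirpa, Gapt, Retnla, Alox5ap and the 3 deep nuclei were described with their values seen.

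Scrublet (scanpy 1.11.5) marked 0 cKO-labelled nuclei and 1 flox control nucleus by its own threshold, so a preset 0.8% per 1000 nuclei was tried as an alternative. Other alternatives changed the limits of the rule, the scaling (edgeR 4.0.16 TMM, DESeq2 1.42.0), depth by thinning to 500 UMIs and the minimum count. Leaving out or widening the exclusion genes, leaving out 1 or 3 deep nuclei and leaving out Gm42418 were added after seeing the data. Python 3.11.15, numpy 2.4.6, pandas 2.3.3 and scipy 1.17.1 were used. The ratios and intervals were checked on simulated Poisson counts, which cannot show how they hold where UMIs gather in single nuclei.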

Additional observations from a re-analysis of the deposited data

How the results depend on the processing

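The share of granulocyte nuclei was 0.191% in the cKO-labelled and 0.319% in the flox control library. In the cKO-labelled library it was 0.0508% with Cd24a left out, 0.0254% with no UMI of the exclusion genes, 0.534% with up to 3 and 0.89% with no limit. In the flox control library it was 0.112%, 0.138%, 0.689% and 1.02% in the same order, and 0.207% at a rate of at least 10 per 10000. After thinning to 500 UMIs, 6.67% of cKO-labelled (1 of 15) and 0% of flox control members (0 of 37) had a UMI of the neutrophil genes. A UMI of the eosinophil genes was left in 5.41% of flox control members (2 of 37). With Cd24a left out the neutrophil share of the 4 cKO-labelled nuclei was 0%.

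The counts of genes past 2-fold, 99 higher and 81 lower in cKO-labelled members, moved in part with the number of genes compared, which was 1434 (6.9% and 5.65%). They were 49 higher and 32 lower of 639 genes (7.67% and 5.01%) at a rate of at least 10 per 10000, 21 and 23 of 254 (8.27% and 9.06%) without Cd24a and 47 and 44 of 275 (17.1% and 16%) with no UMI of the exclusion genes. With no limit on these they were 232 and 149 of 5744 (4.04% and 2.59%), and up to 3 of their UMIs gave 150 lower of 3771 (3.98%). Over the same 1434 genes they were 27 and 180 with TMM factors, 26 and 190 with DESeq2 size factors and 301 and 273 after thinning. They were 2938 and 1431 of 11804 from 1 UMI upward and 8 and 8 of 327 from 50 UMIs upward. TMM factors lowered all log2 ratios by 0.34 and DESeq2 size factors by 0.37. A lower minimum count and thinning leave fewer UMIs per gene, and the part of this in the counts was not tested. For the remaining settings the cause was not tested either.

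Some log2 ratios, cKO over flox control, turned. With no UMI of the exclusion genes these were Acacb (-1.54), Mtss1 (-1.19), Fer (0.049) and Gmds (0.29), and with no limit on them Lrba (0.24), Gpc6 (0.72), Fer (0.32) and Retnla (-0.30). Fer was 0.26 with up to 3. Without Cd24a, Mtss1 was -0.085, Gmds 0.45 and Ptprg 0.45. Thinning gave 0.46 for Lrba and 0.17 for Gmds, and a rate of at least 10 per 10000 gave 0.21 for Gmds. Of 646 values of 30 genes and 8 lists under 17 settings, 15 turned, where a turn was counted only for ratios reported as at least 2-fold. Of the others, 565 stayed within the counting interval and 66 left it, with sign changes of smaller ratios not counted apart. For a list, the value was the median ratio of its genes and the interval was that of its summed counts. No paired analysis was possible because each genotype had 1 library. With 15 and 37 nuclei, a gene below about 81.7 CPM in cKO-labelled or 28.7 CPM in flox control members was not detectable.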
